A study of Mus musculus with 12 samples.

Results

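The experiment crossed knockdown of Ncoa4 with iron restriction in HT22 cells, an immortalized neuronal cell line derived from mouse hippocampus. The question addressed here was whether cells depleted of NCOA4 mounted the same transcript response to iron restriction as control cells. All 12 libraries of the series were used, in 4 groups of 3. Cells of the siControl group received a control siRNA at normal iron, and cells of the siNCOA4 group received siRNA against Ncoa4 at normal iron. The siControl+DFO and siNCOA4+DFO groups received the same siRNAs and the iron chelator deferoxamine (DFO) at 100 µM for 24 h. Every group, the controls included, carried siRNA delivered by liposomes, and all libraries came from the same line, so the comparison describes a transient knockdown in 1 cell line and not neurons of a brain. The labels call the 3 libraries of a group biological replicates without saying how the cultures were separated, and p-values measure the spread between them.

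Iron inside a cell is stored in ferritin, and NCOA4 is the receptor that carries ferritin to the lysosome, where the stored iron is released. DFO binds iron and lowers what the cell can use. Chelation is known to stabilize hypoxia-inducible factors (HIF), whose degradation needs iron, to activate the stress factors p53 and ATF4, and to bring iron regulatory proteins onto mRNAs that carry an iron-responsive element.

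Transcript levels were deposited as fragments scaled to transcript length and library size (FPKM), and all differences below are on the log2(FPKM + 0.1) scale. The DFO response is the DFO group minus the group at normal iron with the same siRNA. The interaction is the DFO response in siNCOA4 cells minus the DFO response in siControl cells, so a gene that DFO raised has a negative interaction where the depleted cells responded less. Of 24343 genes, 11924 reached 0.5 FPKM in at least 3 libraries and were tested with limma, and adjusted p-values are Benjamini-Hochberg values over all of them. A gene was called at an adjusted p below 0.05.

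The knockdown was present in every library. Ncoa4 measured 6.46, 6.19 and 6.02 FPKM in siControl cells, 0.77, 0.952 and 0.891 in siNCOA4 cells, 8.7, 8.31 and 7.52 in siControl+DFO cells, and 0.85, 1.29 and 1.57 in siNCOA4+DFO cells. No depleted library overlapped a control library, and the interaction of Ncoa4 itself was 0.04 (95% interval -0.6 to 0.68). Relative depth, read from the smallest step between low FPKM values, spanned 1.52-fold between the deepest and the shallowest library, and small RNA genes took 36.4% to 41.2% of the summed FPKM without DFO, 42.3% to 46.1% in siControl+DFO and 48.2% to 52.5% in siNCOA4+DFO cells. Rescaling to all other genes gave 232 called interactions in place of 250. Replicate 3 of siNCOA4+DFO stood apart from the others, with DFO responses nearest to the levels at normal iron, the lowest relative depth (0.928) and the highest small RNA share (52.5%), and its part is given beside the results it touches. Neuronal markers were mostly absent, since 3 of 17 were tested (Tubb3, Syn1 and Camk2a), Prox1 and Gad1 were at 0 in every library, and the markers summed to 10.8 to 18.8 FPKM, whereas all 12 mesenchymal markers were tested and summed to 2808 to 6094 FPKM. In bulk RNA, fewer cells of a type and less RNA per cell cannot be told apart.

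DFO changed fewer transcripts in depleted cells, and most of its responses were smaller there. Counting genes past a 2-fold change and past the adjusted threshold, DFO changed 2244 genes in siControl cells (18.8% of those tested) and 1362 in siNCOA4 cells (11.4%). To compare the responses without favouring either arm, the DFO-responsive genes were taken from the mean of both responses, which is independent of the interaction in this balanced design. These were 1848 genes (15.5%), of which DFO raised 1162 and lowered 686. The response was smaller in siNCOA4 cells for 1450 of them (78.5%) and larger for 398. The median response of the raised genes was 1.83 in siControl cells and 1.44 in siNCOA4 cells, and that of the lowered genes was -1.55 and -1.14. The slope of the depleted response on the control response was 0.78, and the median loss of response was close to the same for raised genes (-0.43) and lowered genes (-0.42). When the libraries were set against each other by replicate number, the share with a smaller response was 66.3%, 73.4% and 79.7%, and without siNCOA4+DFO replicate 3 it was 71.2%, with a median loss of -0.3 and a slope of 0.84. Without that library DFO changed 1556 genes in siNCOA4 cells.

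**Figure D1:**
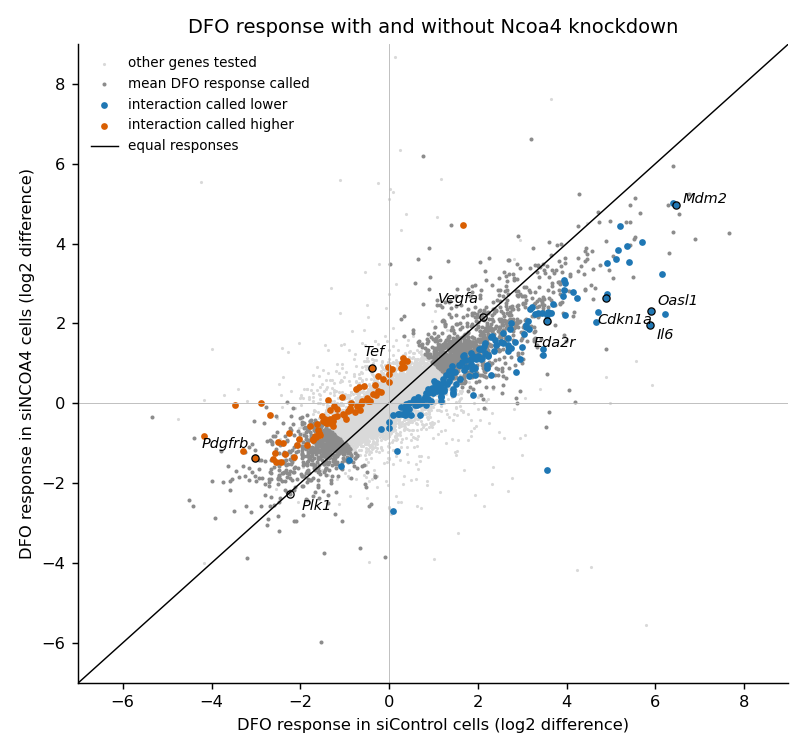
DFO response of each tested gene in siControl cells (x axis) against the response in siNCOA4 cells (y axis), both as log2 differences. Grey points are genes without a called interaction, blue points the 170 with a lower and orange points the 80 with a higher interaction, and the line marks equal responses, so the called genes show which responses moved away from it.

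The interaction was called for 250 genes (2.1% of those tested), 170 of them lower (1.43%) and 80 higher (0.671%). At an unadjusted p below 0.05 there were 1164 lower (9.76%) and 1003 higher (8.41%), and the median interaction of all genes was -0.01. This balance turned with the scaling, to 928 lower and 1188 higher after rescaling to genes other than small RNAs and to 1000 lower and 1018 higher under quantile scaling, whereas the called genes stayed mostly lower (140 lower and 92 higher, and 107 lower and 58 higher). Among the 1848 DFO-responsive genes, 128 had a called weaker response in depleted cells (6.93%), of which DFO raised 100 and lowered 28. At an unadjusted p below 0.05, 596 of the 1848 were weaker and 35 stronger. A stronger response was called for 4 (0.216%), and 189 (10.2%) had an interval of the interaction that lay within a 1.5-fold difference and are termed alike here, 279 without siNCOA4+DFO replicate 3. The remaining genes could not be placed, because the median half-width of the 95% interval was 0.46. The number of calls depended on single libraries. It was 76 without siControl+DFO replicate 1, 92 without siNCOA4 replicate 3, 109 without siNCOA4 replicate 2, and 130 to 147 without siControl replicate 2 or 3, siNCOA4 replicate 1, siControl+DFO replicate 2 or siNCOA4+DFO replicate 2. It was 288 without siNCOA4+DFO replicate 1, and no shared call changed sign in any of the 12 omissions. The count of weaker responses moved with it, to 50, 57 and 67 without the first 3 of these libraries, 72 to 91 without the next 5, and 164 without siNCOA4+DFO replicate 1.

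The p53 growth arrest genes held the most called weaker responses of the 41 gene lists. These genes halt the cell cycle or feed back on p53, and DFO raised 13 of the 16 tested, with a median response over the list of 2.81 in siControl and 1.8 in siNCOA4 cells. All 13 had a smaller response in depleted cells, against 78.5% of all DFO-responsive genes, the share beside which such counts are read below. Of the 16, 8 were called lower for the interaction, against 1.43% of all genes. A weaker response was called for 6.93% of all DFO-responsive genes. The list median was -0.96. None of its 13 DFO-responsive members was alike. Leaving out any 1 library kept the list median between -1.07 and -0.78, with 5 called members without siControl+DFO replicate 1 and 6 to 9 otherwise.

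Cdkn1a encodes p21, the cyclin-dependent kinase inhibitor that carries out p53-dependent growth arrest. It measured 12.7, 16.2 and 16.1 FPKM in siControl, 49.8, 54.6 and 55 in siNCOA4, 435, 467 and 433 in siControl+DFO, and 409, 364 and 247 in siNCOA4+DFO libraries. The depleted cells thus lay above the controls at normal iron and below them under DFO, without overlap in either pair. The DFO response was 4.89 in siControl and 2.64 in siNCOA4 cells, an interaction of -2.24 (95% interval -2.72 to -1.76, adjusted p = 0.000874). The part at normal iron was 1.82 (adjusted p = 2.45e-05), whereas the part under DFO, -0.42, was not called (adjusted p = 0.0854).

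Eda2r, a receptor of the tumor necrosis factor receptor family and a p53 target, showed a different shape. It measured 5.31, 5.77 and 6.69 FPKM in siControl, 17.3, 19.3 and 17.2 in siNCOA4, 70.7, 68.5 and 70.7 in siControl+DFO, and 80.4, 75 and 69.5 in siNCOA4+DFO libraries. Under DFO the groups overlapped, and at normal iron every depleted library was above every control library. The depleted cells differed from the controls by 1.59 at normal iron (adjusted p = 1.47e-06) and by 0.1 under DFO (adjusted p = 0.517), which gave an interaction of -1.49 (adjusted p = 0.000874). Ccng1, cyclin G1, ran the same way, at 86.6 to 94 FPKM in siControl and 210 to 260 in siNCOA4 cells, with an interaction of -1.03 (adjusted p = 0.00397), although its level under DFO was higher in depleted cells (519 to 586 against 389 to 469 FPKM).

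Mdm2, the ubiquitin ligase that feeds back on p53, responded by 6.47 in siControl and 4.96 in siNCOA4 cells. It measured 31.1, 28.4 and 32.5 FPKM in siControl, 47.7, 52.6 and 51 in siNCOA4, 2895, 2754 and 2528 in siControl+DFO, and 1912, 1676 and 1202 in siNCOA4+DFO libraries. All depleted libraries were above the controls at normal iron and below them under DFO, and the interaction was -1.51 (adjusted p = 0.00397). Gadd45g, a stress-inducible growth arrest gene, lost most of its response, which was 2.87 in siControl and 0.78 in siNCOA4 cells (interaction -2.09, adjusted p = 0.00397). The other called members were Trp53inp1 at -1.39, Btg2 at -1.38, Gadd45b at -1.36 and Gadd45a at -1.09. Trp53 itself was not called, with an interaction of -0.1 (adjusted p = 0.862).

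Among 15 tested p53 targets of apoptosis and death receptor signaling, all 10 DFO-responsive members had a smaller response in depleted cells. The list median was -0.57, and 2 were called lower, against 1.43% of all genes. They were Eda2r and Aen, an apoptosis-enhancing nuclease (-0.95, adjusted p = 0.042). Fas, the death receptor, measured 37.2 to 47.8 FPKM in siControl+DFO and 12.5 to 25.9 in siNCOA4+DFO cells and narrowly missed the threshold (-1.57, adjusted p = 0.0509), and Bbc3, which encodes the BH3-only protein PUMA, had -1.01 (adjusted p = 0.131). Of 23 tested p53 targets in repair, stress defence and metabolism, 2 were called lower, the translesion polymerase gene Polk at -1.18 (adjusted p = 0.0168) and the adenylate kinase gene Ak1 at -0.84 (adjusted p = 0.0158). Here 13 of 17 DFO-responsive members had a smaller response, near the 78.5% of all DFO-responsive genes, and 4 had a larger one. The call of Aen was lost without 10 of the 12 libraries in turn, whereas Cdkn1a, Eda2r, Mdm2, Ccng1, Gadd45g, Trp53inp1 and Ak1 were called under every alternative tried.

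**Figure D2:**
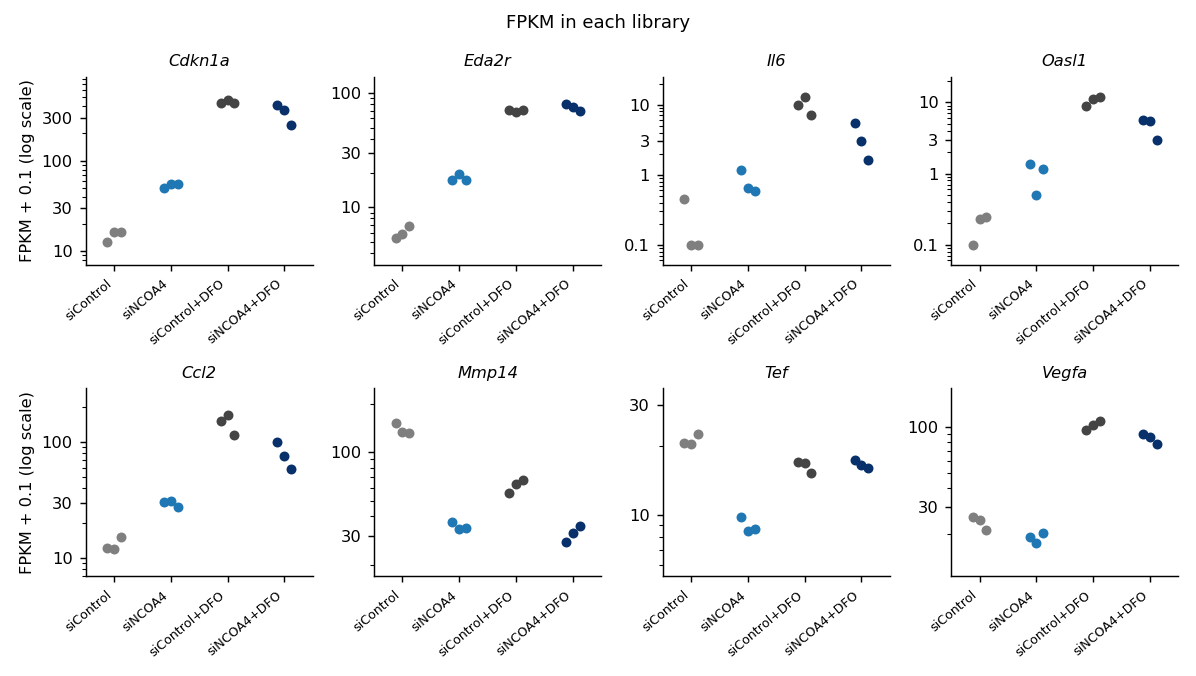
FPKM + 0.1 on a log axis in each of the 12 libraries for Cdkn1a, Eda2r, Il6, Oasl1, Ccl2, Mmp14, Tef and Vegfa, with the 4 groups along the x axis and 1 point per library. Cdkn1a starts higher and ends lower in depleted cells, Eda2r starts higher and ends at a like level, and Vegfa runs in parallel in both arms.

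Cytokine and chemokine transcripts also responded less. These are secreted signals, many of them driven by the transcription factor NF-kB. Of 17 tested, 13 were DFO-responsive, and all 13 had a smaller response in depleted cells, 3 of them within the bound for alike responses. Of the 17, 6 were called lower, against 1.43% of all genes. The list median was -1.32, with median responses of 2.2 in siControl and 1.44 in siNCOA4 cells. Leaving out 1 library at a time kept the median between -1.43 and -1.09, with 2 calls without siNCOA4 replicate 3, 3 without siControl+DFO replicate 1 and 4 to 6 otherwise.

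Ccl2, a chemokine that attracts monocytes, measured 11.9, 11.8 and 14.9 FPKM in siControl, 30.3, 30.8 and 27.6 in siNCOA4, 151, 170 and 115 in siControl+DFO, and 99.2, 75.6 and 58.8 in siNCOA4+DFO libraries. The depleted libraries were all above the controls at normal iron and all below them under DFO. The DFO response was 3.48 in siControl and 1.36 in siNCOA4 cells (interaction -2.12, adjusted p = 0.00351), and the call held under every alternative. Il6, the gene of interleukin-6, was close to the detection limit without DFO, at 0.347, 0 and 0 FPKM in siControl and 1.06, 0.548 and 0.495 in siNCOA4 libraries, and reached 9.85, 12.8 and 7.09 in siControl+DFO and 5.32, 2.9 and 1.51 in siNCOA4+DFO libraries. The groups did not overlap under either condition, but the size of the interaction of Il6 (-3.93, adjusted p = 0.0358) rests on values near 0, and the call was lost when any of 10 of the 12 libraries was left out, with an adjusted p up to 0.0849 without siControl+DFO replicate 1. The other called members were Cxcl1 (-2.17), which attracts neutrophils, Ccl5 (-1.63), Lif (-1.43), a cytokine of the interleukin-6 family, and Ccl7 (-1.32). For Ccl5 and Ccl7 the depleted cells were not called different at normal iron (adjusted p = 0.182 and 0.376) and were called lower under DFO (adjusted p = 0.00361 and 0.000387).

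The promoters of Il6 and Cxcl1 each held a match to the NF-kB motif GGGANTTTC within 250 bases before to 50 bases after the start of the gene. These promoters are shown because they were the only ones among called cytokine and chemokine genes in which a match was found. No match was found for Ccl2, Ccl5, Ccl7 and Lif, some of which may have had no window. The sequences have 20 bases on either side of the match, which is in capitals. The sequences are RefSeq's on GRCm38.p6, 5′ to 3′ on the strand of the gene, which is plus for both.
Il6 at chr5:30013050-30013098 (plus strand, match 44 bases before the start): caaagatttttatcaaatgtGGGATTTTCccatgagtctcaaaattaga
Cxcl1 at chr5:90891154-90891202 (plus strand, match 71 bases before the start): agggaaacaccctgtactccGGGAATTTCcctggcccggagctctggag
On either strand, this motif was present in 365 of all 32851 windows of that length (1.11%). A match is a description of the letters and not of binding.

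Genes of the NF-kB system itself moved less far. Of 22 tested subunits and feedback genes, 8 were DFO-responsive and all 8 had a smaller response, against 78.5% of all DFO-responsive genes. The list median was -0.3, and 1 was called. That was Nfkbia, the inhibitor that NF-kB induces to shut itself off, at 16.9 to 19.9 FPKM in all 6 libraries without DFO, 138 to 190 in siControl+DFO and 52.3 to 77.4 in siNCOA4+DFO cells (interaction -1.3, adjusted p = 0.0134). Its starting levels overlapped and its levels under DFO did not. Ptgs2, which encodes the inducible cyclooxygenase, followed the same course at -0.77 (adjusted p = 0.0173). The 27 tested AP-1 and early growth response factors had a median DFO response of 3.29 in siControl and 2.68 in siNCOA4 cells. Of 25 DFO-responsive members, 22 had a smaller response, against 78.5% of all DFO-responsive genes. At an unadjusted p below 0.05, 13 of the 27 passed, all lower, against 9.76% of all genes. Among the 25, 12 were weaker at that threshold, against 596 of all 1848 DFO-responsive genes. Under the overall slope of 0.78, larger responses go with larger interactions, and no list was compared with that slope. The only call was Ier5 at -1.08 (adjusted p = 0.042), which was lost when any of 10 of the 12 libraries was left out. The count at unadjusted p was 7 without siNCOA4 replicate 1 and 8 without siNCOA4+DFO replicate 3, and 9 to 18 otherwise. Hbegf, a growth factor of the epidermal growth factor family, reached 7.91 to 9.89 FPKM in siNCOA4+DFO against 20.6 to 21.3 in siControl+DFO cells (interaction -1.6, adjusted p = 0.00853).

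Interferon-stimulated genes did not move as a block. Of 44 tested, 24 were DFO-responsive, all raised, with 16 smaller and 8 larger responses in depleted cells. Over all DFO-responsive genes, 78.5% of responses were smaller. The list median was 0.06 and lay between -0.07 and 0.17 when 1 library was left out, so the list had no stable direction. Calls went both ways, with 5 lower and 2 higher, against 1.43% and 0.671% of all genes. At an unadjusted p below 0.05 there were 11 lower and 6 higher, against 9.76% and 8.41% of all genes. With 1 library left out the higher calls were 0 or 1, and the lower calls were 2 without siControl+DFO replicate 1 and 3 to 5 otherwise.

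The lower calls were genes that DFO raised. Oasl1, an oligoadenylate synthetase-like protein induced by interferon, measured 0, 0.132 and 0.141 FPKM in siControl, 1.26, 0.392 and 1.06 in siNCOA4, 8.89, 11.1 and 11.8 in siControl+DFO, and 5.65, 5.37 and 2.85 in siNCOA4+DFO libraries. Depleted libraries were all above the controls at normal iron and all below them under DFO. The interaction of Oasl1 was -3.6 (adjusted p = 0.0168), but its starting values were near 0, and with a pseudocount of 0.01 the adjusted p was 0.059. Ifit1, which binds RNA that lacks a host cap, measured 3.45 to 4.85 FPKM in siControl and 6.32 to 8.1 in siNCOA4 cells, then 133 to 161 in siControl+DFO and 89.1 to 122 in siNCOA4+DFO cells (interaction -1.33, adjusted p = 0.0104). The other lower calls were Isg20 at -1.56, Oasl2 at -1.3 and Samd9l at -0.62.

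On the higher side stood genes that DFO lowered or left near their level in control cells. Trim30a, an interferon-induced ubiquitin ligase, measured 10.9 to 13.3 FPKM in siControl, 10.3 to 12.6 in siNCOA4, 4.44 to 5.42 in siControl+DFO and 8.85 to 14.1 in siNCOA4+DFO cells. Only the siControl+DFO group stood apart, and the interaction was 1.2 (adjusted p = 0.0251). Ifit2 was called at 0.47 (adjusted p = 0.047), a call lost when any 1 library was left out. In the list of 21 tested immunity GTPases and antigen processing genes, the only call was Gbp3, a guanylate-binding protein, at -1.77 (adjusted p = 0.0173). Genes of this family share similar sequence, so reads may have been divided between copies, and the same holds for Ifi202b (-2.63, adjusted p = 0.00405), an interferon-inducible gene with near-identical neighbours. The lists do not hold every gene of these kinds, and calls outside them also went both ways. Ifi47 and Ifi30 were called higher (adjusted p = 0.0284 and 0.0358), and Ifi203 and Ifi204 lower (adjusted p = 0.00814 and 0.0226).

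The promoters of Ifit1, which responded less, and Trim30a, with a higher interaction, both held the core of the interferon-stimulated response element, GAAANNGAA. They are shown with 20 bases on either side of the match, from RefSeq on GRCm38.p6 and 5′ to 3′ on the strand of the gene. The capitals mark the match, which lies on the opposite strand. In Ifit1 another match begins 103 bases before the start and overlaps it, and a further match begins 84 bases before the start.
Ifit1 at chr19:34640760-34640808 (plus strand, match 109 bases before the start): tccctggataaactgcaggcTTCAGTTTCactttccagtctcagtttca
Trim30a at chr7:104465200-104465248 (minus strand, match 35 bases before the start): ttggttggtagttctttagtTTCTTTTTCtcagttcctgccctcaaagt
This core was present in 2812 of the 32851 windows (8.56%), on either strand.

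The called interactions could be divided by where the depleted cells differed from the controls. This is a description, since the interaction is the difference of the same 2 contrasts. Of the 170 lower calls, 68 were genes already higher in siNCOA4 cells at normal iron and not called lower under DFO, 81 were lower under DFO only, 21 were both, and none was neither. Over all tested genes, 539 (4.52%) were called higher and 860 (7.21%) lower in siNCOA4 cells at normal iron, and 742 (6.22%) were called higher and 1221 (10.2%) lower under DFO. Eda2r, Ccng1 and Cdkn1a are examples of the first kind, Nfkbia, Ccl7 and Hbegf of the second, and Mdm2, Ccl2 and Gadd45g of both. Of the 80 higher calls, 32 were lower in siNCOA4 cells at normal iron only, 45 were higher under DFO only, 2 were both and 1 was neither. On the FPKM scale itself, 246 of the 250 interactions kept their sign. The exceptions were 4833427G06Rik, Atg9b, Gbp3 and Oasl2, all with a lower interaction in log2 units but a larger gain in FPKM in depleted cells, because they started higher.

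**Figure D3:**
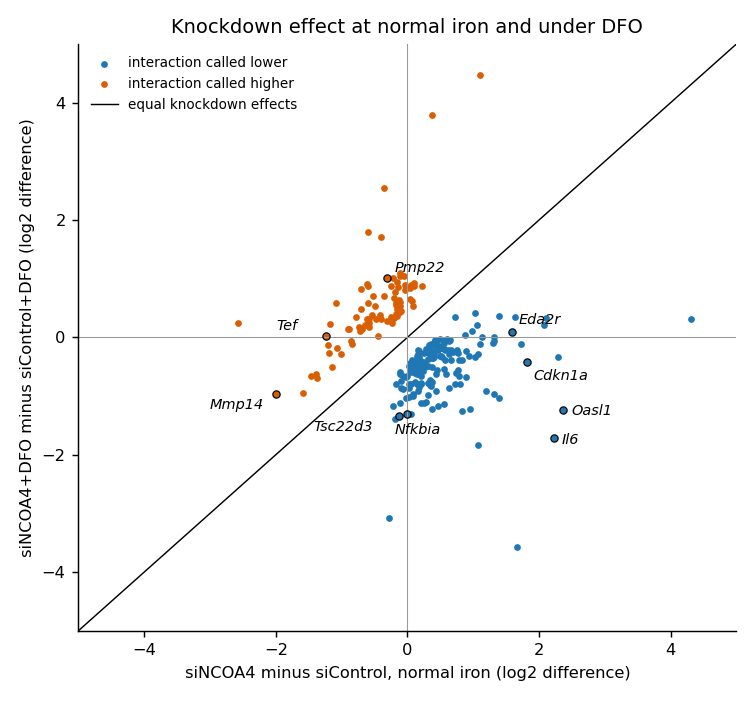
Difference between siNCOA4 and siControl cells at normal iron (x axis) and between siNCOA4+DFO and siControl+DFO cells (y axis), both as log2 differences, for the 250 genes with a called interaction. Points right of 0 near the horizontal line began higher in depleted cells, and points below 0 near the vertical line ended lower under DFO.

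Heat shock proteins, the chaperones that refold damaged proteins, formed another group with lower interactions, although DFO did not raise most of them. Of 18 tested, 6 were called lower, against 1.43% of all genes. In that direction 11 passed an unadjusted p below 0.05, against 9.76% of all genes, and the list median was -0.41. Only 4 of the 18 were DFO-responsive, 1 raised and 3 lowered. The median DFO response was -0.04 in siControl and -0.43 in siNCOA4 cells. Dnajb1, a co-chaperone, measured 22.7 to 28.2 FPKM in siControl, 31.1 to 35.5 in siNCOA4, 85.5 to 96.4 in siControl+DFO and 43.4 to 64.8 in siNCOA4+DFO cells, and so kept only part of its rise (interaction -1.13, adjusted p = 0.0158). Hspa4l, an exchange factor of the Hsp110 family, moved in opposite directions in the 2 arms. It measured 60.9 to 66.2 FPKM in siControl and 87.3 to 92.1 in siControl+DFO cells, and 92.8 to 97.6 in siNCOA4 and 73.6 to 80.6 in siNCOA4+DFO cells, with DFO responses of 0.5 and -0.29 (interaction -0.79, adjusted p = 0.00234). The other calls were Cryab at -0.76, Dnajb4 at -0.72, Hsp90aa1 at -0.62 and Hsph1 at -0.5. With 1 library left out, 2 members were called without siControl+DFO replicate 1, 3 without siControl replicate 2 or any 1 siNCOA4 library, and 4 to 6 otherwise.

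Genes of the BMP and TGF-beta response held 4 lower calls among 20 tested, against 1.43% of all genes. All 10 DFO-responsive members responded less in depleted cells, against 78.5% of all DFO-responsive genes. Inhba, a subunit of activin, measured 8.03, 8.27 and 8.09 FPKM in siControl, 13.7, 14.8 and 14.3 in siNCOA4, 44, 40.4 and 37 in siControl+DFO, and 27, 22.9 and 20.4 in siNCOA4+DFO libraries. As with Mdm2, the depleted libraries were above the controls without DFO and below them with it, and the interaction was -1.59 (adjusted p = 0.000874). The other calls were Cyr61, a matricellular protein, at -1.39, Skil, a repressor of SMAD transcription, at -1.34 and Smad7, the inhibitory SMAD, at -1.09. Among 19 tested G1 cyclins, kinases and inhibitors, Ccnd1 and Ccne2 were called. Ccnd1, cyclin D1, measured 29.7 to 34.7 FPKM in all libraries without DFO, 66.1 to 71.1 in siControl+DFO and 33.6 to 43.6 in siNCOA4+DFO cells (interaction -0.98, adjusted p = 0.00375). Ccne2, cyclin E2, had -1.04. Tsc22d3, a glucocorticoid-induced leucine zipper protein, was at 22.7 to 27.1 FPKM in siControl+DFO and 8.95 to 11.4 in siNCOA4+DFO cells, the latter overlapping its levels without DFO of 7.77 to 9.09 (interaction -1.21, adjusted p = 0.00397).

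Keratins and epithelial stress genes had the lowest list median, -1.84, but only 6 of 18 were tested. Evpl, envoplakin, was the 1 call. It was at 0 to 0.0523 FPKM in siControl and 0.08 to 0.29 in siNCOA4 cells, and at 8.7 to 9.38 in siControl+DFO and 1.69 to 3.48 in siNCOA4+DFO cells (interaction -2.91, adjusted p = 0.0174). Its starting values were near 0, and the value of Evpl ran from -4.33 to -1.73 over the alternatives.

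Extracellular matrix and mesenchymal genes showed a weaker response of the other direction, because DFO lowered them and lowered them less in depleted cells. Of 17 tested collagens, 15 had an interaction above 0, and 3 were called higher against 0.671% of all genes. All 6 DFO-responsive members fell less, where 78.5% of all DFO-responsive genes had a smaller response. The list median was 0.33, between 0.2 and 0.48 when 1 library was left out, and the calls were 0 without siNCOA4 replicate 2 or 3 and 1 to 4 otherwise, with 6 to 8 members at an unadjusted p below 0.05 in every case. Col1a1, the main chain of type I collagen, measured 337 to 439 FPKM in siControl, 198 to 254 in siNCOA4, 73.4 to 107 in siControl+DFO and 108 to 132 in siNCOA4+DFO cells, so the depleted cells started lower and ended higher (interaction 1.14, adjusted p = 0.0198). Col3a1 had 1.07 and Col4a5, a basement membrane chain, 0.62. The call of Col3a1 was lost when any of 10 of the 12 libraries was left out, with an adjusted p up to 0.103 without siControl+DFO replicate 1.

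Mmp14, the membrane-anchored metalloproteinase that cleaves collagen, measured 152, 133 and 132 FPKM in siControl, 36.9, 33.1 and 33.9 in siNCOA4, 55.3, 63 and 66.6 in siControl+DFO, and 27.7, 31.4 and 34.9 in siNCOA4+DFO libraries. Knockdown had already brought it below the level that DFO reached in control cells, and the 2 depleted groups overlapped. The DFO response was -1.17 in siControl cells and -0.15 in siNCOA4 cells, the latter not called (adjusted p = 0.26), and the interaction was 1.03 (adjusted p = 0.00467). Of 10 tested metalloproteinases and inhibitors, 8 had an interaction above 0, and the other call was Adamts1 at 0.64. Pdgfrb, the platelet-derived growth factor receptor of mesenchymal cells, measured 24.1 to 28 FPKM in siControl, 12 in each siNCOA4 library, 2.59 to 3.53 in siControl+DFO and 3.52 to 6.54 in siNCOA4+DFO cells (interaction 1.67, adjusted p = 0.0125).

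These genes overlap the mesenchymal markers, whose summed level moved with the groups. All 12 were tested, 3 were called higher for the interaction (Col1a1, Col3a1 and Pdgfrb), and the sum ran from 5551 to 6094 FPKM in siControl, 4826 to 5206 in siNCOA4, 3018 to 3089 in siControl+DFO and 2808 to 3334 in siNCOA4+DFO libraries. Markers of astrocytes and oligodendrocytes moved with the groups too, with sums of 56.4 to 68.5, 36.3 to 41.2, 7.34 to 10.6 and 10.8 to 25.4 FPKM in the same order. Of 12 such markers 4 were tested, all with an interaction above 0, a median of 1.17, 2 at an unadjusted p below 0.05 and none called, and Slc1a3 and Pdgfra, at 42.1 and 20.2 FPKM in siControl cells, made up most of the sum while Olig1 and Olig2 were at 0. Of 10 microglia markers 2 were tested and none was called, and their sum was 11.4 to 14.2, 5.48 to 7.31, 3.37 to 3.8 and 3.87 to 4.88 FPKM, with Tmem119 the highest at normal iron and P2ry12 and Tyrobp at 0. The part of a changing cell composition in the matrix result was not tested.

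Pmp22, a membrane protein of peripheral myelin, kept more of its level under DFO in depleted cells, at 13.2 to 20.3 against 7.4 to 7.94 FPKM (interaction 1.32, adjusted p = 0.00439). Tef, a transcription factor of the circadian output family, measured 20.4, 20.3 and 22.5 FPKM in siControl, 9.64, 8.39 and 8.58 in siNCOA4, 16.8, 16.7 and 15.1 in siControl+DFO, and 17.2, 16.3 and 15.9 in siNCOA4+DFO libraries. Here only the depleted cells at normal iron stood apart. The DFO response of Tef was -0.38 in control cells and 0.89 in depleted cells, an interaction of 1.26 (adjusted p = 0.000874). It was the only call among 15 tested circadian clock genes, whose median was 0.12.

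Lysosomal genes leaned toward higher interactions. Of 33 tested, 26 had an interaction above 0, 10 passed an unadjusted p below 0.05 upward against 8.41% of all genes and 1 downward, and the median was 0.26. The median DFO response was 0.33 in siControl and 0.57 in siNCOA4 cells, and most members changed by less than 2-fold. Among the 5 that were DFO-responsive, 3 had a smaller and 2 a larger response in depleted cells. The only member called was Hexa, a subunit of the hexosaminidase that breaks down gangliosides, at 26.8 to 28 FPKM in siControl, 22.3 to 23.3 in siNCOA4, 29.6 to 37.5 in siControl+DFO and 39.6 to 47.2 in siNCOA4+DFO cells (interaction 0.59, adjusted p = 0.047). When 1 library was left out, the number passing an unadjusted p upward was 4 without siControl replicate 3, 5 without siNCOA4+DFO replicate 2, 6 without siNCOA4 replicate 3 or siControl+DFO replicate 1, and 7 to 14 otherwise, and the median lay between 0.17 and 0.3.

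Mcoln1, a cation channel of the lysosomal membrane that lets iron out, was listed with the iron genes and was the only one of 17 tested iron import, storage and sensing genes to be called. It measured 10.4, 11.1 and 11.1 FPKM in siControl, 9.96, 9.33 and 11 in siNCOA4, 12, 13.7 and 14.7 in siControl+DFO, and 20.3, 23.2 and 18.4 in siNCOA4+DFO libraries. The siNCOA4+DFO libraries were above all others, and the interaction was 0.72 (adjusted p = 0.0408). Grn, the gene of the lysosomal glycoprotein progranulin, ran the same way at 82 to 101 FPKM in siControl+DFO and 125 to 155 in siNCOA4+DFO cells (interaction 0.76, adjusted p = 0.0392). Further lysosomal genes outside the list, picked after their values had been seen, were Gpnmb at 0.84 and Ppt1, a thioesterase, at 0.45. Tmem106b, a lysosomal membrane protein, at 0.84 and Lipa, the acid lipase, at 0.57 were also called, but as smaller falls. Lamp1, the main glycoprotein of the lysosomal membrane, was at 161 to 187 FPKM in siControl+DFO and 222 to 263 in siNCOA4+DFO cells, and its interaction of 0.42 was not called (adjusted p = 0.0923). The calls of Hexa, Mcoln1, Grn, Gpnmb, Lipa, Ppt1 and Tmem106b were each lost when most single libraries were left out, with an adjusted p of at most 0.108.

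**Figure D4:**
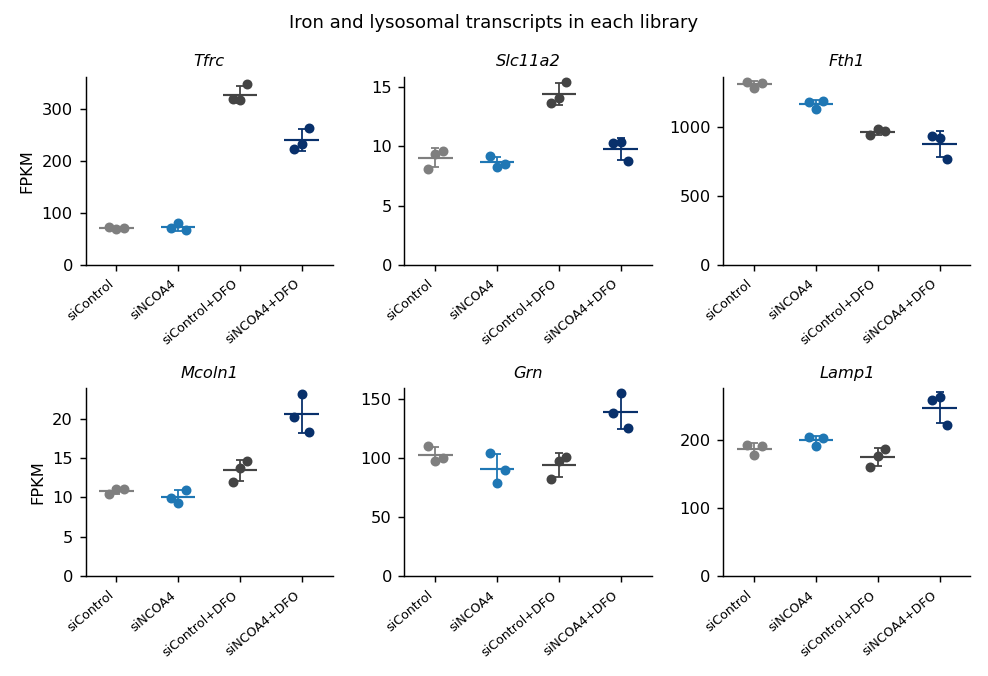
FPKM on a linear axis from 0 in each library for Tfrc, Slc11a2, Fth1, Mcoln1, Grn and Lamp1, with the mean and SD of the 3 libraries of each group. Tfrc and Slc11a2 are lower in siNCOA4+DFO than in siControl+DFO cells, Fth1 is lower with DFO in both arms, and the 3 lysosomal genes are highest in siNCOA4+DFO cells.

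The mRNAs with an iron-responsive element are those that the iron regulatory proteins bind. Tfrc, the transferrin receptor that takes up iron, and Slc11a2, the transporter that moves iron out of endosomes, carry such elements after the coding region, where bound proteins stabilize the mRNA. Fth1 and Ftl1, the ferritin heavy and light chains, carry them before it, where bound proteins block translation. A search of the gencode vM21 transcripts found 4 elements in Tfrc, where the paper counts 5, and 1 in each of the others. Each is shown at 27 bases, 5′ to 3′ on the strand of the gene with GRCm38 coordinates, to let the loops be compared, and capitals mark the loop CAGTGN.
Tfrc element at chr16:32631220-32631246 (plus strand, 3′ UTR): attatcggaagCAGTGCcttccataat
Tfrc element at chr16:32631599-32631625 (plus strand, 3′ UTR): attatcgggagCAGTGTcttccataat
Tfrc element at chr16:32631664-32631690 (plus strand, 3′ UTR): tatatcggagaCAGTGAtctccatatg
Tfrc element at chr16:32631711-32631737 (plus strand, 3′ UTR): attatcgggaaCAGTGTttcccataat
Slc11a2 element at chr15:100395154-100395180 (minus strand, 3′ UTR): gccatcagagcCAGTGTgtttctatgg
Fth1 element at chr19:9982733-9982759 (plus strand, 5′ UTR): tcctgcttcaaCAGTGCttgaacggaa
Ftl1 element at chr7:45459780-45459806 (minus strand, 5′ UTR): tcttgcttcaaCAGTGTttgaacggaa
The 5 bases on either side of the loop could all pair in each element but that of Slc11a2, where 4 of 5 could. The Slc11a2 element was in 1 of 6 coding transcripts, each Tfrc element in 1 of 3, that of Ftl1 in 1 of 2 and that of Fth1 in 4 of 5. A level per gene therefore mixes forms with and without the element.

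Tfrc measured 72.5, 68.6 and 69.8 FPKM in siControl, 69.9, 80 and 66 in siNCOA4, 319, 318 and 348 in siControl+DFO, and 224, 233 and 264 in siNCOA4+DFO libraries. The groups overlapped at normal iron and did not under DFO, where every depleted library was lower. DFO raised Tfrc by 2.22 in siControl and 1.74 in siNCOA4 cells, and the interaction of -0.48 (95% interval -0.75 to -0.22) missed the threshold (adjusted p = 0.0649). It passed without siNCOA4+DFO replicate 3, at -0.55 (adjusted p = 0.0444), and was smaller under quantile scaling, at -0.31 (adjusted p = 0.348). Slc11a2 measured 8.1, 9.39 and 9.58 FPKM in siControl, 9.16, 8.3 and 8.55 in siNCOA4, 13.7, 14.1 and 15.5 in siControl+DFO, and 10.3, 10.4 and 8.74 in siNCOA4+DFO libraries. Here too the arms overlapped at normal iron and separated under DFO. Its response was 0.67 in siControl cells (adjusted p = 0.000243) and 0.17 in siNCOA4 cells (adjusted p = 0.227), and the interaction of -0.5 (95% interval -0.84 to -0.16) was not called (adjusted p = 0.112).

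The ferritin mRNAs responded nearly alike. Fth1 fell under DFO in both arms, with responses of -0.44 and -0.42, from 1286 to 1333 down to 945 to 992 FPKM in control cells and from 1136 to 1192 down to 769 to 940 in depleted cells, and its interval of the interaction, -0.29 to 0.32, lay within a 1.5-fold difference. The interaction of Ftl1 was 0.18 (95% interval -0.17 to 0.53). Slc39a14, an importer of iron not bound to transferrin, rose by 1.77 in siControl and 1.76 in siNCOA4 cells, with an interaction of -0.01 (95% interval -0.55 to 0.52), and Ireb2, which encodes an iron regulatory protein, had -0.11 (95% interval -0.43 to 0.21). Slc40a1, the iron exporter ferroportin, was too low to be tested, at 0 to 0.573 FPKM. No member of 9 tested mRNAs with an iron-responsive element, of 13 tested heme genes or of 24 tested iron-sulfur cluster genes was called. At an unadjusted p below 0.05, 2, 2 and 0 of them were lower, against 9.76% of all genes. In the same order 0, 2 and 2 were higher, against 8.41% of all genes.

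Most targets of HIF and ATF4 responded to DFO, and their list medians of the interaction were nearer to 0 than those of the p53 and cytokine lists. At an unadjusted p below 0.05, 8 HIF targets and 8 ATF4 genes were lower, against 9.76% of all genes, and 3 of each were higher. Among DFO-responsive members, 8 of 22 HIF targets and 7 of 20 ATF4 genes were weaker at that threshold. These shares lay near that of all DFO-responsive genes, 596 of 1848. Of 30 tested HIF targets outside glycolysis, 22 were DFO-responsive, with 16 smaller and 6 larger responses in depleted cells. Among all DFO-responsive genes 78.5% of responses were smaller. The list median was -0.17, and the median responses were 1.55 in siControl and 1.3 in siNCOA4 cells. Vegfa, the vascular endothelial growth factor and a classical HIF target, measured 25.6, 24.6 and 21.3 FPKM in siControl, 18.9, 17.4 and 20.2 in siNCOA4, 96.2, 104 and 109 in siControl+DFO, and 89.7, 86.7 and 77.2 in siNCOA4+DFO libraries. The depleted libraries were lower under both conditions, and the responses of 2.11 and 2.16 were alike. The 2 calls in this list were Ddit4, an inhibitor of mTORC1, at -0.87 (adjusted p = 0.0271) and Ero1l, an oxidase of the endoplasmic reticulum, at -0.84 (adjusted p = 0.0322). With 1 library left out, the call of Ddit4 was lost in 7 and that of Ero1l in 9 of the 12 fits, and the list held 0 calls without siNCOA4 replicate 2 or 3 or siControl+DFO replicate 1 or 2, 4 without siNCOA4+DFO replicate 1 and 1 otherwise. Of the DFO-responsive members, 5 were alike. Of 18 tested glycolysis genes, 13 had an interval of the interaction within a 1.5-fold difference, against 33.8% of all tested genes. Of the 4 that were DFO-responsive, 3 were alike. No glycolysis gene was called, 2 passed an unadjusted p below 0.05, and the median was -0.04. Hk2, hexokinase 2, responded by 2.07 and 2.2, and Pfkl, liver phosphofructokinase, by 1.38 and 1.53.

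Of 33 tested ATF4 and integrated stress response genes, 20 were DFO-responsive, with 13 smaller and 7 larger responses. Among all DFO-responsive genes 78.5% of responses were smaller. Of the 20, 9 were alike, among them Trib3 (1.43 and 1.55), a pseudokinase, and Chac1 (1.99 and 2.16), which degrades glutathione. The list median was -0.12. The 2 calls were Nupr1, a stress-induced nuclear protein, at -1.25 (adjusted p = 0.00971), which was at 33.3 to 47.9 FPKM in siControl and 72.3 to 83.6 in siNCOA4 cells and thus began higher, and Cth, an enzyme of cysteine synthesis, at -0.63 (adjusted p = 0.0354). The largest alike responses of raised genes also included Dusp4, a phosphatase of MAP kinases (3.29 and 3.46), Foxo3, a forkhead factor (2.41 and 2.3), and Lpin1, a phosphatidate phosphatase (2.22 and 2.26). For Dusp4, Foxo3 and Lpin1 the depleted libraries were lower than the controls with and without DFO, so equal responses went with unequal levels.

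**Figure D5:**
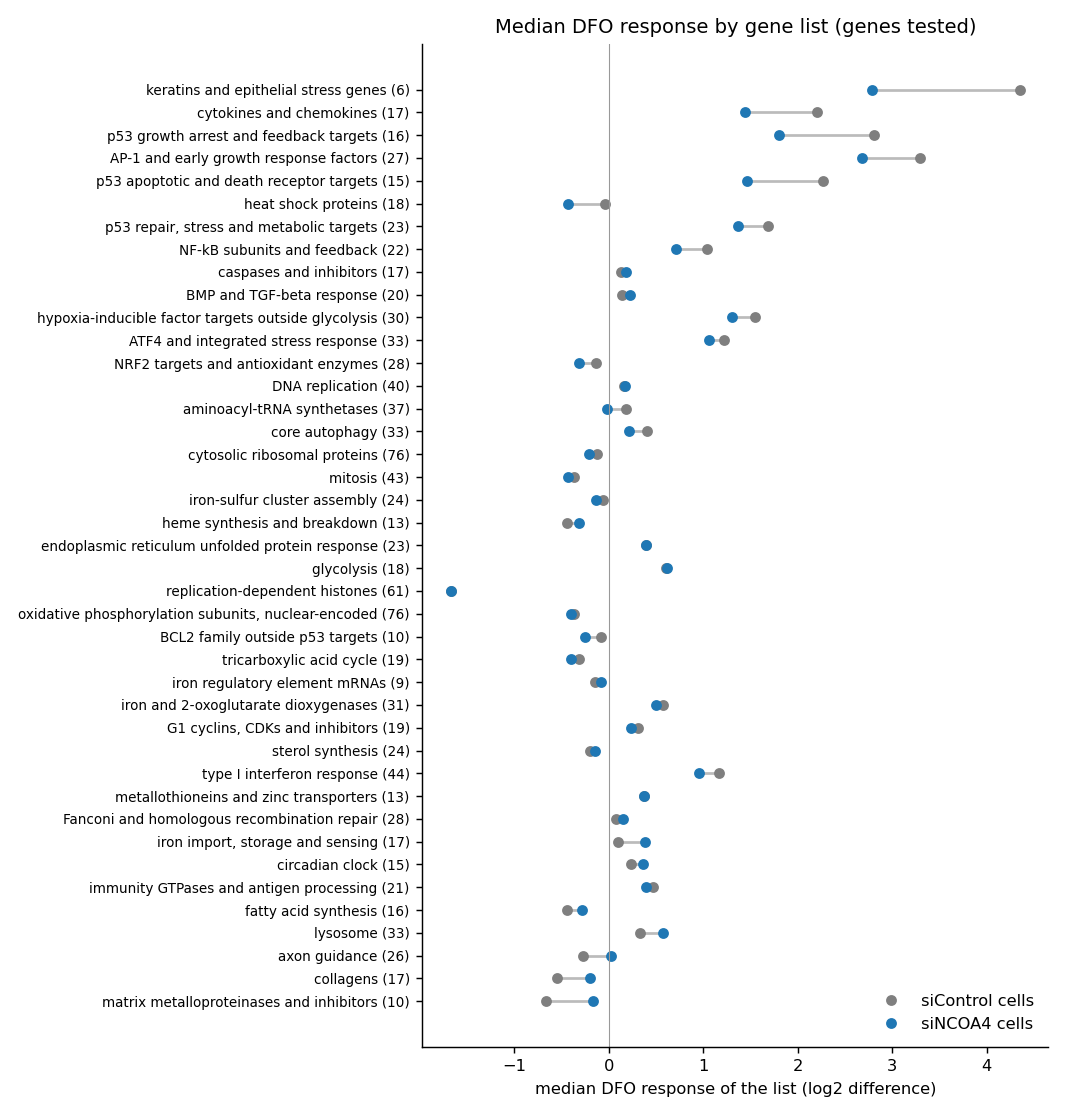
Median DFO response (log2) of each of 41 gene lists in siControl cells (grey) and siNCOA4 cells (blue), joined by a line and ordered by the median interaction. The grey points lie right of the blue ones for keratins, cytokines, p53 and AP-1 genes, the 2 nearly coincide for glycolysis and histones, and the order is turned for collagens, metalloproteinases, axon guidance and lysosome.

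Of the proliferation and housekeeping lists that follow, only the mitosis list held calls. Replication-dependent histone genes fell under DFO by the same median of -1.67 in both arms over 61 tested, with 28 smaller and 26 larger responses among 54 DFO-responsive members, but their spread was wide and 2 were alike. These genes share nearly identical sequences, and single members are uncertain. Of 43 tested mitosis genes, 10 were DFO-responsive with 5 smaller and 5 larger responses. Plk1, the polo-like kinase of mitotic entry, measured 34.8 to 36.9 FPKM in siControl, 32.1 to 40.7 in siNCOA4, 5.85 to 8.91 in siControl+DFO and 6.69 to 9.59 in siNCOA4+DFO cells, overlapping in both pairs, with an interaction of -0.03. The 2 calls among the 43 mitosis genes, both lower, were Kif20a at -0.54 and Tpx2, a spindle assembly factor, at -0.58. Over all genes 1.43% were called lower. At an unadjusted p below 0.05, 8 mitosis genes were lower and 2 higher, against 9.76% and 8.41% of all genes. With 1 library left out the list held 0 to 3 lower calls. No call was made among 76 oxidative phosphorylation subunits, 19 tricarboxylic acid cycle enzymes, 76 ribosomal proteins and 40 DNA replication genes. At an unadjusted p below 0.05 there were 2, 1, 1 and 8, against 9.76% lower and 8.41% higher of all genes. The interval of the interaction lay within a 1.5-fold difference for 47, 17, 46 and 27 of them, against 33.8% of all genes. Only 1, 0, 0 and 2 of them were DFO-responsive, so these intervals mostly concern genes outside the DFO-responsive set. Sterol synthesis genes also had no call, with 17 of 24 within that bound and 1 DFO-responsive. Genes of the unfolded protein response of the endoplasmic reticulum had none either, with 16 of 23 within it and 4 DFO-responsive.

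A stronger response was called for 4 DFO-responsive genes, which are named because they were so few. Hsph1, a heat shock protein of the Hsp110 family, measured 97.9, 98.1 and 100 FPKM in siControl, 93.1, 89.5 and 89.4 in siNCOA4, 48.3, 46 and 45.6 in siControl+DFO, and 29.4, 28.9 and 32.9 in siNCOA4+DFO libraries, without overlap under DFO. Its DFO response was -1.08 in control cells and -1.58 in depleted cells (interaction -0.5, adjusted p = 0.0198), a call lost after rescaling to genes other than small RNAs. Kif20a, a kinesin of cell division, had DFO responses of -0.9 and -1.43 (interaction -0.54, adjusted p = 0.0178), from 41.7 to 47.7 down to 22.9 to 24.2 in siControl+DFO and 16.7 to 18.1 FPKM in siNCOA4+DFO cells. Bglap3, listed at 0 in all siNCOA4 libraries and at 1.33 to 2.67 FPKM with DFO, and 1700026D08Rik, listed at 0 in all siNCOA4+DFO libraries and at 0.435 to 1.13 elsewhere, have no fold. The count of stronger responses was 1 without siNCOA4 replicate 3 and 6 without siNCOA4+DFO replicate 3.

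Among the genes with the most extreme interactions, Cyp3a13, a cytochrome P450, had -2.43 (adjusted p = 0.0397), at 0 to 0.0994 FPKM in siControl cells and 2.67 to 3.92 with DFO against 1.25 to 1.84 in depleted cells. The value of Cyp3a13 ran from -4.51 to -1 over the alternatives, and the call was lost in 11 of 12 omissions of a library and under 5 other alternatives. Atg9b, an autophagy gene, began at 0.609 to 0.902 FPKM in siControl and 3.24 to 3.93 in siNCOA4 cells and reached overlapping levels of 35.5 to 39.5 and 34.6 to 48.4 (interaction -1.86, adjusted p = 0.00351). At the other end stood genes that DFO lowered less in depleted cells. They included Traf5, an adaptor of tumor necrosis factor receptors, at 2.39, Ptn, the growth factor pleiotrophin, at 1.53, and Slpi, a protease inhibitor, at 1.4. For Ptn the level in siNCOA4+DFO replicate 3, 40.5 FPKM, was nearer to normal iron than in the other 2 libraries of its group. Ppargc1a, a coactivator of mitochondrial genes, had a DFO response of -1.38 in control cells and 0.08 in depleted cells (interaction 1.46, adjusted p = 0.0283). C430049B03Rik, with 2.11, was at 2.18 to 2.76 FPKM in siControl+DFO and 5.69 to 14 in siNCOA4+DFO cells, and Cep41, a centrosomal protein, had 1.24. The call was lost in 11 of 12 omissions for Traf5, 10 for Slpi, 10 for Cep41, 8 for Ptn and 7 for Ppargc1a. That of C430049B03Rik was kept in each. Gm19705 was listed at 0 in all siControl+DFO libraries and has no fold. Axon guidance genes leaned the same way, with 21 of 26 above 0 and a median of 0.33, but their 1 call was Sema3c, a secreted semaphorin, at -0.81. Of the remaining lists, core autophagy, antioxidant, caspase, BCL2 family, aminoacyl-tRNA synthetase, fatty acid, DNA repair, metallothionein and iron-dependent dioxygenase genes held 2 calls in all, both lower, Nfe2l2 and Kdm6a.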

How the data were processed

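RNA-seq libraries were made from total RNA with a stranded kit. The authors deposited 1 table of FPKM per library, and their processing notes name Trimmomatic 0.33, FastQC, HISAT2 2.1.0, featureCounts and edgeR with mm10. How FPKM was computed and whether strand was counted are not given in the sources used here, so reads of overlapping or antisense genes cannot be told apart. Each table held 24347 entries, of which 4 with a repeated name were left out, 6929 genes were at 0 in every library, and 23 names had turned into dates and are not named. Read totals are not in FPKM tables, and only relative depth (0.928 to 1.41) was recovered.

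Because FPKM is not a count, a means model of the 4 groups was fitted to log2(FPKM + 0.1) with limma 3.58.1 in R 4.3.3, with empirical Bayes moderation along the mean-variance trend and 8 residual degrees of freedom. Genes needed 0.5 FPKM in 3 libraries, and p-values were adjusted by Benjamini-Hochberg over 11924 genes. Correlations of log2 values between libraries of a group were 0.926 to 0.955. On simulated data the fit recovered 60% of interactions of 1 and 87% of interactions of 2 on the log2 scale, with 8 false among 155 calls.

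The 45 gene lists (4 of them markers) and the genes described were chosen with earlier results of these data known. Named by rule were Cdkn1a, Il6, Oasl1, Eda2r, Ncoa4, 7 iron genes, the 12 lowest and 12 highest called interactions at a mean FPKM of at least 1, the 3 largest interactions in lists with the most members at p below 0.05 and in the stress and iron lists, and the 5 largest alike responses in each direction. Some genes that the rule names are not reported here. Every other gene named was chosen after its values had been seen. Promoter windows came from RefSeq (GRCm38.p6), and elements from gencode vM21 transcripts. Promoter shares over the called genes are not given, since 79.6% of tested genes had a window. Alternatives were other pseudocounts, filters, scalings, moderation, a replicate block, another bound for alike responses and each library left out. Figures were drawn with matplotlib 3.10.9.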

Additional observations from a re-analysis of the deposited data

Results flagged for a closer look

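The responses to DFO differed between siControl and siNCOA4 cells for 250 genes by limma's test of the interaction at an adjusted p below 0.05. The values that follow are interactions on the log2 scale for most of those that are described by name. A negative value means that the DFO response, with its sign, was lower in depleted cells. For a gene that DFO lowered in control cells, a negative value is thus a larger fall. A positive value is then a smaller fall or a rise.

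Among p53 targets and stress genes the interaction was -2.24 for Cdkn1a, -2.09 for Gadd45g, -1.51 for Mdm2, -1.49 for Eda2r, -1.39 for Trp53inp1, -1.38 for Btg2, -1.36 for Gadd45b, -1.25 for Nupr1, -1.18 for Polk, -1.09 for Gadd45a, -1.03 for Ccng1, -0.95 for Aen, -0.87 for Ddit4, -0.84 for both Ak1 and Ero1l, and -0.63 for Cth. Among cytokines and factors of inflammation it was -3.93 for Il6, -2.17 for Cxcl1, -2.12 for Ccl2, -1.63 for Ccl5, -1.43 for Lif, -1.32 for Ccl7, -1.3 for Nfkbia, -1.08 for Ier5 and -0.77 for Ptgs2. Among interferon-inducible genes it was -3.6 for Oasl1, -2.63 for Ifi202b, -1.77 for Gbp3, -1.56 for Isg20, -1.33 for Ifit1, -1.3 for Oasl2, -0.62 for Samd9l, 0.47 for Ifit2 and 1.2 for Trim30a.

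Growth factor and cell cycle genes lay at -1.6 for Hbegf, -1.59 for Inhba, -1.39 for Cyr61, -1.34 for Skil, -1.21 for Tsc22d3, -1.09 for Smad7, -1.04 for Ccne2, -0.98 for Ccnd1, -0.58 for Tpx2 and -0.54 for Kif20a. Heat shock genes lay at -1.13 for Dnajb1, -0.79 for Hspa4l, -0.76 for Cryab, -0.72 for Dnajb4, -0.62 for Hsp90aa1 and -0.5 for Hsph1. The other lower values were -3.99 for 4833427G06Rik, -2.91 for Evpl, -2.43 for Cyp3a13 and -1.86 for Atg9b.

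On the higher side, lysosomal genes lay at 0.45 for Ppt1, 0.57 for Lipa, 0.59 for Hexa, 0.72 for Mcoln1, 0.76 for Grn, and 0.84 for both Gpnmb and Tmem106b. Matrix and mesenchymal genes lay at 0.62 for Col4a5, 0.64 for Adamts1, 1.03 for Mmp14, 1.07 for Col3a1, 1.14 for Col1a1 and 1.67 for Pdgfrb. The rest were 1.24 for Cep41, 1.26 for Tef, 1.32 for Pmp22, 1.4 for Slpi, 1.46 for Ppargc1a, 1.53 for Ptn, 2.11 for C430049B03Rik and 2.39 for Traf5. The fitted values of Tnni2 (-5.23), 1700026D08Rik (-2.78), Bglap3 (2.82) and Gm19705 (3.35) depend on the pseudocount, because each was listed at 0 in every library of at least 1 group, and are no measure of size. Several values near 0 FPKM also moved widely over the alternatives, from -6.26 to -1.66 for 4833427G06Rik, -6.1 to -2.04 for Il6, -5.02 to -1.85 for Oasl1, -4.51 to -1 for Cyp3a13 and -4.33 to -1.73 for Evpl, and those of Atg9b, Gbp3, Oasl2 and Traf5 moved by over 1.5 times.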

How the results depend on the processing

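Over the alternatives that left no library out, the interaction was called for 164 to 282 genes, and no shared call changed sign. Quantile scaling gave 165 calls, 107 of them lower, and moderation without a trend gave 164, with 113 lower and 51 higher. Without a filter there were 50 higher calls and 7 stronger responses. A pseudocount of 1 lowered the DFO-responsive genes to 1177, and a bound of 2-fold raised the alike responses to 651. A replicate block gave 171 calls, 160 of them shared, with 43 higher, and ended 17 named calls, those of the lysosomal genes Hexa, Mcoln1, Grn, Gpnmb, Ppt1, Lipa and Tmem106b and of Aen, Cth, Samd9l, Ifit2, Trim30a, Ppargc1a, Traf5, Cep41, Cyp3a13 and 1700026D08Rik. Under quantile scaling the interaction of Tfrc was -0.31. The cause of these shifts was not tested. The numbers share no more than a number, since correlations of deviations between same-numbered libraries ran from -0.127 to 0.116 and between other libraries from -0.174 to 0.162.

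With each library left out in turn, the interaction ranged from 76 to 288 calls (16 to 97 higher, 60 to 191 lower) and at an unadjusted p from 840 to 1035 higher and 973 to 1233 lower. The DFO response ranged from 2166 to 2272 genes in siControl and 1207 to 1556 in siNCOA4 cells, and its mean from 1755 to 1942. Weaker responses ranged from 50 to 164, stronger from 1 to 6 and alike from 137 to 279. The share with a smaller response ranged from 71.2% to 80%, the median loss from -0.49 to -0.3 and the slope from 0.75 to 0.84. The interaction ranged from -0.55 to -0.4 for Tfrc and from -0.55 to -0.42 for Slc11a2. Of 79 named calls that were followed through the alternatives, 29 held under each of them. With 3 libraries a group the median standard error of the interaction was 0.21, which limits the smaller differences.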
